A study of Danio rerio with 8 samples.

Results

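Isolated Her7-only peaks are Her7 peaks that stand alone on a zebrafish chromosome, with no Her1 peak over them and no other Her7 peak close by. They were chosen by peak positions and summits in the deposited lists. The rule took peaks of the Her7 list on the 25 numbered chromosomes, without the part of chromosome 4 from position 27000000 onward. It kept those that overlapped no Her1 peak by even 1 bp and whose summit, the base with the highest signal, lay more than 10 kb from every other Her7 summit. Of the 5591 peaks in the Her7 list, 858 were off the numbered chromosomes and 298 lay in the left-out part of chromosome 4. Of the remaining 4435, 458 overlapped a Her1 peak and 1180 had a Her7 neighbour within 10 kb. The other 2797 peaks are the isolated Her7-only peaks, 50.0% of the whole list. The rule read positions, summits and the Her1 overlap, so the absence of overlap and the spacing above 10 kb are not results.

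Her1 and Her7 are basic helix-loop-helix proteins of the Hairy and Enhancer-of-split kind that repress transcription. They bind DNA as pairs, can pair with each other or with the related protein Hes6, and act through Groucho-type co-repressors. In the presomitic mesoderm of the zebrafish embryo they repress their own genes and the Notch ligand gene deltaC in cycles, and this segmentation clock sets the rhythm at which somites form.

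Occupancy was measured by CUT&Tag, in which an antibody brings the transposase Tn5 to the chromatin around its target and the cut fragments are sequenced. The Her7 list came from untreated whole embryos of the line Tg(her1:nls-mkate2,her7:her7-YFP), whose YFP-tagged Her7 was captured with an anti-GFP antibody in the first of a pair of replicates. The Her1 list came from untreated whole embryos of Tg(her1:her1-YFP), captured with the antibody named anti-GFPpoly. Both used 120 dissociated bud-stage embryos per replicate and read proteins made from transgenes under her7 or her1 control, as the line names give it, in all cell types of the embryo together. The other 6 of the 8 samples, among them a second Her7 replicate and the negative controls, were not analysed here. Each line thus had 1 list, and sequencer (MiSeq for Her7, NextSeq 500 for Her1), antibody and line cannot be told apart. With 1 list per line no test between groups of peaks was possible, and intervals cover counting error only. Positions are those of the lists, counted from 1, and the genome build is not given in the sources used here, so no gene is named and no sequence is shown.

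The isolated peaks were spread over all chromosomes. Chromosome 5 held 173, the most, and the used part of chromosome 4 held 56, the fewest. Per Mb of chromosome, with its length taken as the last peak end found on it, the density ran from 1.70 on chromosome 1 to 2.55 on chromosome 21 with a median of 2.18. Chromosome 23 with 2.45, chromosome 5 with 2.39, chromosome 15 with 2.38 and chromosome 17 with 2.38 followed chromosome 21. The low end was made up of chromosome 1, then chromosome 18 with 1.82, chromosome 12 with 1.85 and chromosome 10 with 1.94. The range was narrower than that of all Her7 peaks on the same chromosomes, which ran from 2.26 on chromosome 1 to 4.72 on chromosome 25. Part of this narrowing can follow from the rule, which left out peaks with a Her7 neighbour within 10 kb. The density of Her1 peaks ran from 0.830 on chromosome 6 to 2.11 on the used part of chromosome 4. Chromosomes differed more in what share of their Her7-only peaks stood alone. On chromosome 6 this share was 87.5% and on chromosome 25 it was 47.6%, with a median of 71.9%.

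**Figure D1:**
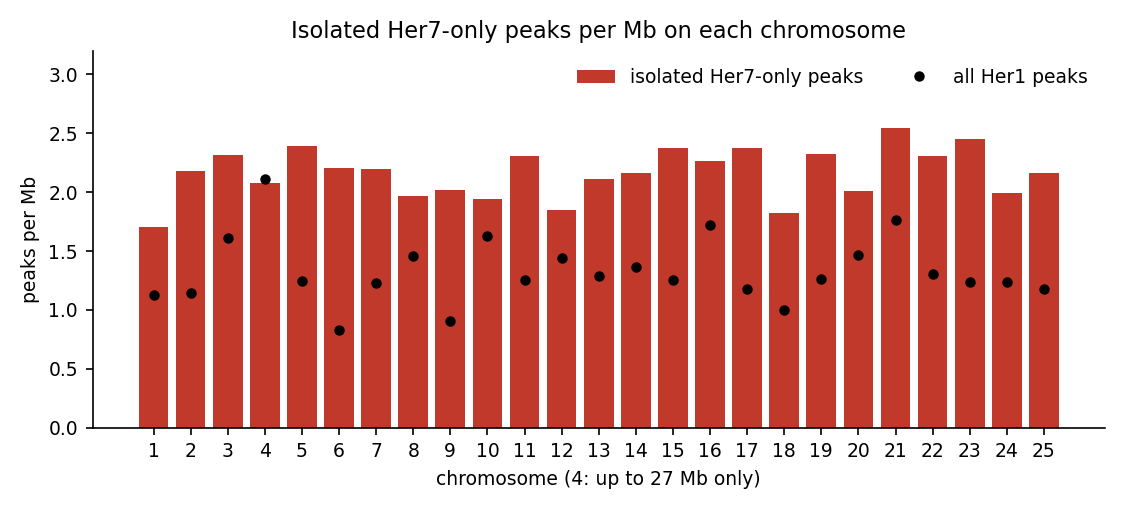
Bars give isolated Her7-only peaks per Mb and points give all Her1 peaks per Mb (y axis) on each of the 25 chromosomes (x axis). The bars lie between 1.70 on chromosome 1 and 2.55 on chromosome 21, and the points between 0.830 on chromosome 6 and 2.11 on chromosome 4.

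Chromosome ends, a split made after the values were seen, carried more isolated peaks than the inner parts. In the outermost 1 Mb at each end of 24 chromosomes (chromosome 4, of which only a part was used, was left out) there were 6.19 ± 1.65 isolated peaks per Mb, against 2.00 ± 0.187 in the rest (mean and SD over chromosomes). The ends were the denser part on 24 of the 24 chromosomes. Their values ran from 3.5 per Mb on chromosome 20 to 9.5 on chromosome 15. The inner values, 1.61 on chromosome 1 to 2.32 on chromosome 21, lay below these without overlap. This is not particular to the members, because all Her7 peaks stood at 10.0 per Mb in the outermost Mb and 3.26 beyond 10 Mb. Between 1 and 2 Mb from an end the density of isolated peaks was 3.27 ± 1.62. Between 2 and 5 Mb it was 2.22 ± 0.659, and beyond 10 Mb it was 1.91 ± 0.154.

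The far end of each chromosome was placed at the last peak of either list, since chromosome lengths were not used. The near end, which starts at position 1 whatever the peaks, gave a like picture. The first Mb of the 25 chromosomes held 154 isolated peaks, with 2 as the lowest number on a chromosome and 12, on chromosome 2, as the highest. Chromosome 5 and chromosome 21 followed with 10 each. All Her7 peaks and all Her1 peaks were denser there too, with 10.0 Her7 and 3.23 Her1 peaks per Mb in the outermost Mb, against 3.26 Her7 and 1.28 Her1 peaks per Mb beyond 10 Mb. The higher density at the ends was thus not seen in isolated peaks alone. The share of Her7 peaks that were isolated and Her7-only was 61.9% in the outermost Mb, 77.3% at 1 to 2 Mb, 76.4% at 2 to 5 Mb, 69.0% at 5 to 10 Mb and 58.8% beyond 10 Mb. At 2 to 5 Mb all Her7 peaks, at 2.91 per Mb, were sparser than beyond 10 Mb, while isolated peaks, at 2.22, were denser. Background, defined below, moved with position. Its median was 9.71 times the lowest value in the outermost Mb and 2.90 times beyond 10 Mb, and counting only members whose background was up to 10 times the lowest, the ratio of ends to inner parts was 2.19 in place of 3.09.

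**Figure D2:**
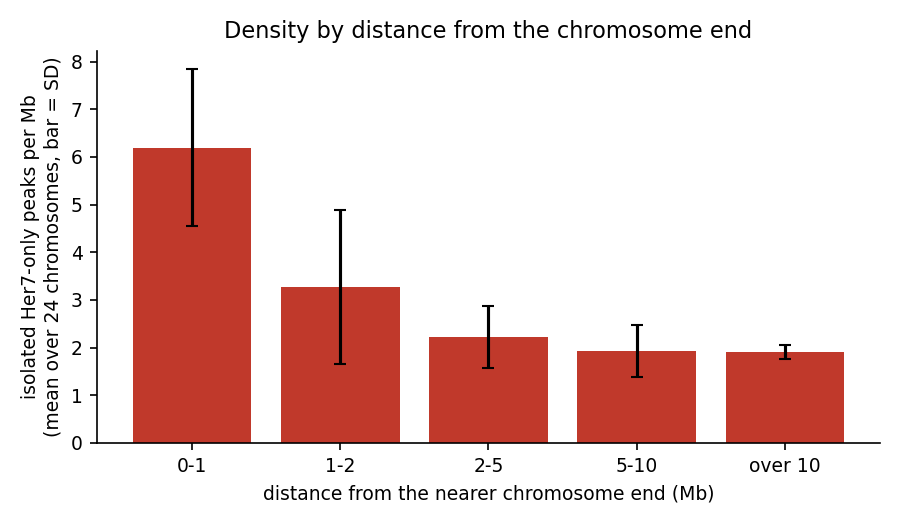
Bars give isolated Her7-only peaks per Mb (y axis, mean over 24 chromosomes, error bars SD) by distance from the nearer chromosome end in Mb (x axis). The mean is 6.19 in the outermost Mb, 3.27 in the next, and 1.91 beyond 10 Mb.

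Most stretches of chromosome held few isolated peaks. Of 1282 whole windows of 1 Mb, ends included, 182 (14.2%) held no isolated peak, 362 held 1, 293 held 2 and 214 held 3. The mean was 2.12 ± 1.67 (SD over windows), and it was 2.04 ± 1.55 without the first Mb of each chromosome. Only 105 windows held 5 or more. The fullest, the first Mb of chromosome 2, held 12 isolated peaks among 17 Her7 peaks, and 8 Her1 peaks. It was followed by the first Mb of chromosome 5 and of chromosome 21 with 10 each, and by 5 windows with 9, among them the first Mb of chromosome 14 (22 Her7 peaks), 54000001 to 55000000 on chromosome 16 and 52000001 to 53000000 on chromosome 17. All 9 Her7 peaks of that chromosome 17 window were isolated and Her7-only.

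The summit of the nearest other Her7 peak lay a median of 117534 bp away (interquartile range 47833 to 258454). It was over 100 kb away for 1535 members (54.9%) and over 1 Mb away for 30 (1.07%). The most isolated peak lay on chromosome 9 from 39442590 to 39442865, with its nearest Her7 summit 2.01 Mb away, a fold enrichment of 10.3 and 14 fragments at the summit. The next lay on chromosome 19 from 37462622 to 37463265, 1599 kb from a neighbour, and on chromosome 16 from 29570563 to 29570890, 1583 kb from one. These 3 were picked after their values were seen, and their fold enrichments, 10.3, 7.30 and 6.02, were all below the members' median of 12.9.

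The members nearest to the 10 kb limit had their neighbour 10033 bp away, on chromosome 7 from 74149621 to 74150097 (fold enrichment 2.23), and 10078 bp away, on chromosome 2 from 14115284 to 14115879 (fold enrichment 7.07). Just outside, a peak on chromosome 25 from 35122031 to 35122279 (fold enrichment 14.8) had a neighbour at 9989 bp, and a pair on chromosome 18, from 761608 to 762138 and from 771709 to 772096, lay 9968 bp apart (fold enrichments 8.56 and 34.2). At the chromosome 4 limit the last member ran from 26957597 to 26958094 (fold enrichment 42.8), and the first peak beyond it that met the other conditions ran from 27099279 to 27099564 (fold enrichment 47.9).

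Strength is given by 3 quantities. The fold enrichment is the authors' value at the summit, the signal there over the local background that the peak caller estimated. A constant, given with the processing, is added to both before they are divided. Where the background is lowest, this constant makes up most of the divisor, so the fold enrichment is far below the plain quotient. The −log10 q is the authors' value for how far the signal exceeded that background. The pileup, the number of fragments stacked over the summit, and the background behind it were computed from the deposited fold enrichment and −log10 p. The lowest background of the Her7 list, 0.169 fragments per position, is called the floor, and backgrounds are given as multiples of it.

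Isolated peaks were narrower and lower in fragments than clustered Her7-only and Her1-overlapping peaks, with a median fold enrichment between theirs. Against the whole list, of which they are 50.0%, their fragments were only slightly lower. Their median width was 371 bp (interquartile range 287 to 483), against 453 bp (335 to 663) for clustered Her7-only peaks, 623 bp (388 to 1229) for Her7 peaks overlapping Her1, and 399 bp in the whole Her7 list. Only 38 members (1.36%) were wider than 1000 bp, against 133 clustered (11.3%) and 140 Her1-overlapping peaks (30.6%). Fold enrichment had a median of 12.9 among isolated peaks (6.85 to 31.6), 8.38 (5.13 to 16.3) for clustered Her7-only peaks, 16.6 (8.54 to 42.0) for Her1-overlapping peaks and 10.98 in the whole list. Isolated peaks therefore stood 1.54 times above clustered Her7-only peaks in median fold enrichment.

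By fragments the order of isolated and clustered peaks was the opposite. The median pileup was 38 fragments (interquartile range 14 to 77) for isolated peaks, 46.5 (20 to 108) for clustered Her7-only peaks, 129 (52 to 356) for Her1-overlapping peaks and 40 in the whole list. The ratio of isolated to clustered was then 0.817. The background stood lower at isolated peaks, with a median of 3.32 times the floor, against 13.8 times at clustered Her7-only peaks and 23.9 times at Her1-overlapping peaks. It was at the floor for 619 isolated peaks (22.1%), 60 clustered peaks (5.08%) and 17 Her1-overlapping peaks (3.71%). The 143 Her1-overlapping peaks that also had no Her7 neighbour within 10 kb had a median of 17.8 times the floor. Only 9 of them (6.29%) were at the floor, so a low background was not shared by all kinds of peak that stood alone. Whether neighbouring peaks add to the background of clustered peaks was not tested.

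The −log10 q of isolated peaks had a median of 35.8 (interquartile range 10.3 to 93.7), against 28.0 for clustered Her7-only peaks, 101 for Her1-overlapping peaks and 33.9 in the whole list. It was at least 100 for 647 members (23.1%, close to the 22.9% in the whole list) and at least 500 for 11. At the weak end, 514 members (18.4%) stacked no more than 10 fragments, against 860 peaks (15.4%) in the whole list, and 353 members had over 100 (12.6%, against 19.8% in the whole list). Peaks of over 100 fragments were thus a smaller share of the members than of the list. A closer match for the isolated Her7-only peaks is the set of 143 Her7 peaks that overlapped Her1 and also had no Her7 neighbour within 10 kb. These 143 had a median fold enrichment of 20.8, a median pileup of 108 fragments and a median width of 464 bp, so peaks with Her1 overlap were the stronger also among those that stood alone. In median fold enrichment isolated Her7-only peaks stood at 0.777 of all Her1-overlapping peaks, but at 1.23 when Her7 peaks within 10 kb of a Her1 edge were counted with the overlapping ones.

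**Figure D3:**
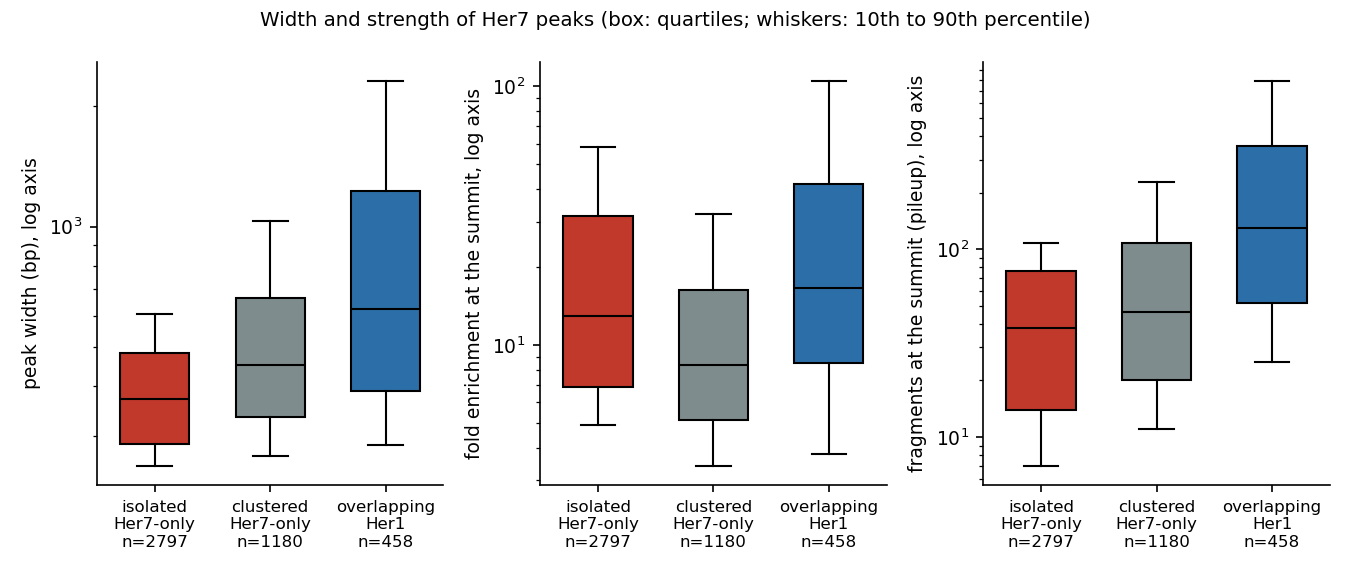
Boxes give the quartiles and whiskers the 10th to 90th percentile of width in bp, fold enrichment and pileup (y axes, log) for isolated Her7-only, clustered Her7-only and Her1-overlapping Her7 peaks. Isolated peaks are the narrowest (median 371 bp) and lowest in pileup (median 38 fragments), while their median fold enrichment, 12.9, lies between 8.38 for clustered and 16.6 for Her1-overlapping peaks.

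In the division of the Her7 list, standing alone was commoner among Her7-only peaks than among Her1-overlapping ones. Overlap and spacing are the values that the rule used, so these shares describe that division only. Of 3977 Her7-only peaks, 2797 (70.3%) had no Her7 neighbour within 10 kb, against 143 of 458 Her1-overlapping peaks (31.2%). The same division is given by strength below, as a description and not as support. When the 4435 Her7 peaks were cut by −log10 q into 5 sets of 887, the isolated share of Her7-only peaks was 73.6% in the weakest set, 63.9%, 65.8% and 73.3% in the next, and 76.1% in the strongest. For Her1-overlapping peaks it was 52.2% in the weakest set (12 of 23), 30.0%, 24.4% and 30.9% in the next, and 32.1% in the strongest.

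Members that stood farther apart had somewhat fewer fragments over a lower background, while fold enrichment and width changed little with distance. Median pileup was 45 fragments with a Her7 neighbour at 10 to 20 kb, 42 at 20 to 50 kb, 37 at 50 to 100 kb, 35 at 100 to 200 kb, 37 at 200 to 500 kb and 32 beyond 500 kb. Median background was 5.06 times the floor in the nearest of these classes and 2.72 times in the farthest. Members with a Her7 neighbour at 10 to 20 kb had a median fold enrichment of 10.7, those at 100 to 200 kb had 13.8 and those beyond 500 kb had 12.0. Median widths in the same classes were 377, 372 and 360 bp. Across the 2797 members Spearman's rho between neighbour distance and fold enrichment was 0.03, and between neighbour distance and −log10 q it was -0.01, as a description of peaks that share 1 library.

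The strongest member by −log10 q lay on chromosome 9 from 52900047 to 52901306. It was 1260 bp wide, its −log10 q was 2426, its fold enrichment was 447, and 979 fragments stood over 7.08 times the floor. Its nearest Her7 summit was 352 kb away and its nearest Her1 summit 1394 kb away, so it was strong and remote at once. The peaks ranked next also had high pileups, over higher backgrounds of 30.7 to 3146 times the floor. On chromosome 24 a peak from 643 to 949 had 2867 fragments, the highest pileup of any member, over a background of 3146 times the floor, which left a fold enrichment of 5.40. On chromosome 15 a peak from 47522938 to 47523662 had 672 fragments and a fold enrichment of 86.8. A peak on chromosome 21 from 13751131 to 13751515 had 631 fragments and a fold enrichment of 102. The peak on chromosome 25 from 26076 to 27017 had 699 fragments at 103 times the floor and a fold enrichment of 38.1. The chromosome 24 and 25 peaks lay within 30 kb of the first base of their chromosomes.

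The sixth and seventh by −log10 q had backgrounds at the floor. Both lay on chromosome 3. The first (23197433 to 23198048) had 291 fragments and a fold enrichment of 249.9, and its nearest Her1 summit was 51.2 kb away. The second (49401351 to 49401621) had 246 fragments in 271 bp and a fold enrichment of 211. The remaining members of the 10 strongest were on chromosome 13 from 17728618 to 17729526 (fold enrichment 183, 229 fragments), on chromosome 6 from 39006167 to 39006909 (fold enrichment 22.7, 605 fragments, background 152 times the floor) and, last, chromosome 14 from 36220390 to 36220892 (fold enrichment 175, 242 fragments). None of the 10 lay within 50 kb of a Her1 summit, but few members did. Of all 2797 members 427 (15.3%) lay that near.

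The strongest member of each other chromosome follows. Those of chromosomes 4, 5, 7 and 17 were alike in fold enrichment. On chromosome 4 it ran from 16681903 to 16682411 (fold enrichment 161, 187 fragments), on chromosome 5 from 38589650 to 38590167 (161, 242 fragments), on chromosome 7 from 41674833 to 41675238 (163, 190 fragments) and on chromosome 17 from 52081366 to 52083261 (163, 189 fragments). The chromosome 17 peak was 1896 bp wide and had a Her1 summit 10.0 kb away. Chromosome 16 followed with a peak from 54399605 to 54400364 (fold enrichment 134, 182 fragments), then chromosome 23 with one from 32876401 to 32876874 (108, 156 fragments) and chromosome 11 with one from 22034622 to 22035245 (102, 118 fragments).

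A set of 4 narrow peaks led chromosomes 10, 12, 20 and 1. They were 261, 278, 276 and 332 bp wide, held 111, 107, 108 and 98 fragments at the floor, and had fold enrichments of 95.8, 92.4, 93.3 and 84.7. Their positions were 11596926 to 11597186 on chromosome 10, 25380147 to 25380424 on chromosome 12, 37628729 to 37629004 on chromosome 20 and 7577960 to 7578291 on chromosome 1. In each of the 4 the summit lay within 1 bp of the middle of the peak, a feature taken up below. The leading peaks of the last 5 chromosomes had backgrounds above the members' median of 3.32 times the floor, on chromosome 22 only somewhat. These were, on chromosome 18, from 36897085 to 36897514 (fold enrichment 87.6, 14.0 times the floor), on chromosome 22 from 985862 to 986495 (74.4, 5.46 times), on chromosome 8 from 26328893 to 26329498 (45.0, 30.3 times), on chromosome 19 from 31802390 to 31802757 (34.3, 66.5 times) and on chromosome 2 from 8112414 to 8113412 (20.7, 93.3 times). Over all chromosomes the −log10 q of the leading member ran from 227 on chromosome 1 to 2426 on chromosome 9.

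The weakest members sat just above the authors' q threshold of 0.01. One was on chromosome 10, from 15742049 to 15742328 (fold enrichment 2.87, 22 fragments at 41.6 times the floor), another on chromosome 1, from 111690 to 111987 (3.26, 17 fragments at 26.8 times) and the third on chromosome 10, from 21305681 to 21305961 (4.59, 6 fragments at 3.11 times). A fold enrichment under 5 was seen for 305 members (10.9%, against 14.9% in the whole list). A background above 100 times the floor was seen for 82 (2.93%, against 9.60% in the whole list). Fragments of those 82 were many, with a median pileup of 165, but their median fold enrichment was 4.95. The 619 members at the floor had a median pileup of 25 fragments and a median fold enrichment of 22.2.

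Widths had a sharp upper edge near 700 bp. Of the members 2688 (96.1%) were at most 700 bp wide, against 78.1% of clustered Her7-only and 55.2% of Her1-overlapping peaks. There were 193 members over 600 and up to 700 bp wide, and 27 over 700 and up to 800 bp wide. At the lower end 14 members had the minimum width of the list, 233 bp, and 804 (28.7%) were under 300 bp. The widest member, on chromosome 23 from 14912170 to 14917038, was 4869 bp wide but had only 15 fragments at its summit and a fold enrichment of 13.0. The next were on chromosome 7 from 571233 to 573452 (2220 bp, 113 fragments) and on chromosome 25 from 36990899 to 36993070 (2172 bp, 131 fragments, fold enrichment 113).

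Width and strength had no steady relation among members. Median pileup was 36 fragments in members up to 250 bp wide, 41 in those over 300 and up to 400 bp, 28 in those over 500 and up to 750 bp, 73.5 in the 54 over 750 and up to 1000 bp, and 111 in the 38 wider ones. By strength, median width was 338 bp in the weakest 560 members by −log10 q, 405 bp in the middle 560 and 342 bp in the strongest 558. A width of at most 300 bp together with a pileup above 50 fragments was found for 351 members (12.5%), for 80 clustered Her7-only peaks (6.78%), for 35 Her1-overlapping peaks (7.64%) and for 536 peaks of the whole Her7 list (9.59%). Among the 143 Her1-overlapping peaks without a Her7 neighbour it was found for 20 (14.0%, exact 95% interval 8.76 to 20.8), so the members did not stand apart from these. Among peaks with background at the floor it was found for 77 of 619 members (12.4%), 5 of 60 clustered peaks (8.33%), 1 of 17 Her1-overlapping peaks (5.88%) and 102 of 933 peaks in the whole list (10.9%).

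A share of members had their summit at the centre, a feature looked at after the values were seen. In 457 members (16.3%, exact 95% interval 15.0 to 17.8) the summit lay within 1 bp of the midpoint of the peak, against 37 clustered Her7-only peaks (3.14%, 2.22 to 4.30), 10 Her1-overlapping peaks (2.18%, 1.05 to 3.98) and 626 of the 5591 peaks in the whole Her7 list (11.2%). Among the 143 Her1-overlapping peaks without a Her7 neighbour it was 7 (4.90%, 1.99 to 9.83), and in the Her1 list as a whole it was 493 of 2061 (23.9%). Such centred members were not weak. Their median pileup was 40 fragments, against 37 in the other 2340 members, and their median fold enrichment was 29.9, against 11.3. Their background was at the floor in 252 cases (55.1%), against 367 of the other 2340 members (15.7%). Their higher fold enrichment thus came with a lower background, at nearly the same pileup. None was wider than 696 bp, and the wider ones held fewer fragments, with a Spearman's rho between width and pileup of -0.31 over these 457 peaks. The median pileup was 55 fragments in the 166 centred members up to 300 bp wide, 53 in the 133 up to 400 bp, 36 in the 75 up to 500 bp, 20 in the 53 up to 600 bp and 13.5 in the 30 up to 700 bp. Whether copies of single fragments were removed before peaks were called is not given in the sources used here, and the part of such copies in these peaks was not tested. Without all centred peaks, 2340 members remain, with a median fold enrichment of 11.3.

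**Figure D4:**
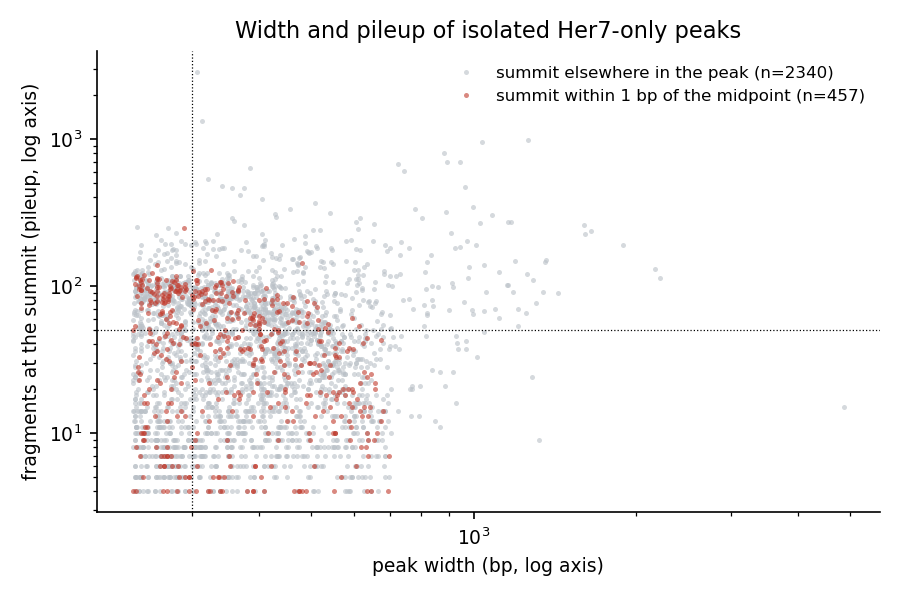
Each point is an isolated Her7-only peak, with its width in bp (x axis, log) and its pileup in fragments (y axis, log), and red points have their summit within 1 bp of the midpoint. Dotted lines mark 300 bp and 50 fragments. Most points lie left of 700 bp, and the 457 red points have a median of 55 fragments up to 300 bp and of 13.5 fragments over 600 bp.

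Most isolated Her7-only peaks lay over 100 kb from the nearest Her1 summit. The Her1 list was sparse, with a median of 1.25 peaks per Mb over chromosomes. Whether the distances exceed what so sparse a list gives was not tested. The Her1 list also rested on fewer fragments. Its lowest background was 0.0330 fragments per position, against 0.169 in the Her7 list. Its peaks on these chromosomes had a median pileup of 11 fragments, against 44 for the Her7 peaks. Whether some Her7-only peaks lie at Her1 sites with too few fragments to be called was not tested. The nearest Her1 summit was a median of 322 kb away (interquartile range 94454 to 742650 bp). For clustered Her7-only peaks the median was 25807 bp. A Her1 summit lay within 1 kb of 28 isolated peaks (1.00%), within 10 kb of 127 (4.54%), within 100 kb of 721 (25.8%) and within 1 Mb of 2319 (82.9%). Among all 4435 Her7 peaks of these chromosomes, overlapping ones included, the shares were 11.5%, 23.7%, 42.8% and 87.3%. The same counts for clustered Her7-only peaks were 42 (3.56%), 468 (39.7%), 717 (60.8%) and 1095 (92.8%). Part of this gap follows from the rule, because a Her7 peak over a Her1 peak makes its close neighbours clustered. Of the 1180 clustered peaks, 165 had such a peak as their nearest Her7 neighbour. Among the other 1015 the median distance to a Her1 summit was 64.9 kb, and 552 (54.4%) had one within 100 kb. Only the nearest neighbour was looked at, so these 1015 can still have a Her1-overlapping Her7 peak within 10 kb. The effect of the rule is therefore not removed from their values.

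**Figure D5:**
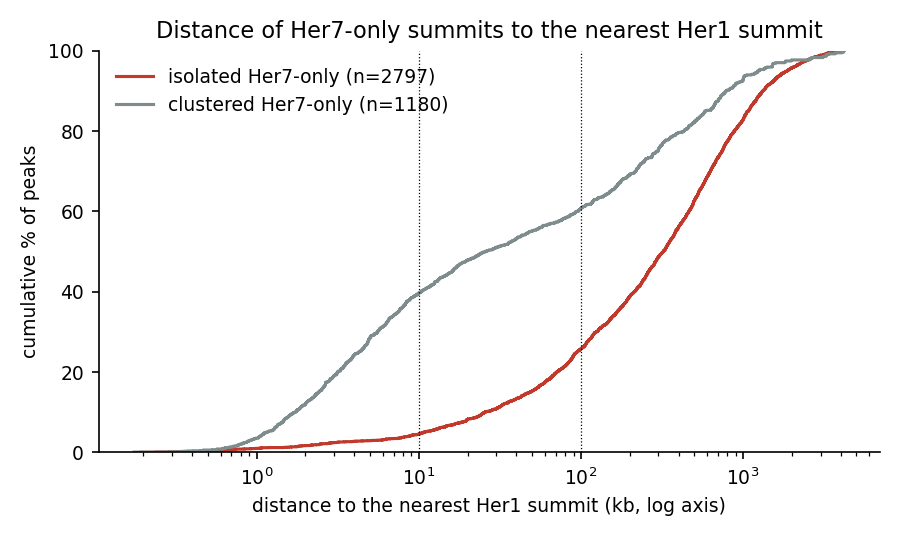
Curves give the cumulative percentage of peaks (y axis) whose nearest Her1 summit lies within a given distance in kb (x axis, log) for 2797 isolated and 1180 clustered Her7-only peaks. Dotted lines mark 10 and 100 kb, where the isolated curve stands at 4.54% and 25.8% and the clustered curve at 39.7% and 60.8%.

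How strength went with distance from Her1 depended on the measure of strength. By −log10 q the ends of the range were close. The median distance was 361 kb for the weakest 560 members by −log10 q and 300 kb for the strongest 558, and a Her1 summit lay within 10 kb of 3.57% and 4.30% of them. Spearman's rho between −log10 q and Her1 distance was -0.05. By fragments, members with more lay nearer to Her1. The median distance was 411 kb in members of up to 10 fragments, 292 kb in those over 50 and up to 100, 236 kb in those over 100 and up to 200, and 238 kb in the 61 above that. A Her1 summit lay within 100 kb of 18.5%, 29.5%, 32.9% and 27.9% of them. Background moved with the distance. Members at the floor had a median Her1 distance of 398 kb, those at up to 10 times the floor 341 kb, those at 10 to 100 times 216 kb, and the 82 above that 249 kb. Of the 1100 windows of 1 Mb that held an isolated peak, 447 held no Her1 peak. This was near the share over all 1282 windows, of which 535 (41.7%) held no Her1 peak. The mean number of isolated peaks was 2.28 in windows with a Her1 peak and 1.88 in windows without one.

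The members closest to Her1 were near misses of the overlap. Fold enrichments of Her7 and Her1 peaks, given here and below, come from separate lists and are not to be compared in size. The shortest distance between summits was 193 bp, on chromosome 11, where the Her7 peak ran from 41935532 to 41935801 (fold enrichment 14.7) and ended 125 bp short of a Her1 peak with a fold enrichment of 12.6. On chromosome 4 the summits of a Her7 peak from 16882668 to 16882961 (fold enrichment 9.88) and a Her1 peak (4.97) were 237 bp apart, and on chromosome 20 those of a Her7 peak from 26707808 to 26708208 (38.3) and a Her1 peak (3.97) were 246 bp apart. By edges the smallest gap was 6 bp, on chromosome 15, between the Her7 peak from 6866177 to 6866780 (fold enrichment 15.2, 179 fragments) and a Her1 peak with a fold enrichment of 6.94. A gap of at most 100 bp was found for 9 members and one of at most 500 bp for 27.

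The 127 members within 10 kb of a Her1 summit had a median fold enrichment of 10.3, a median pileup of 47 fragments and a median width of 371 bp, the width of all members. The 127 Her1 peaks nearest to them had a median fold enrichment of 7.74 and a median pileup of 10 fragments, against 8.71 and 11 for the 1691 Her1 peaks on the same chromosomes. They lay on the lower-numbered side in 62 cases and on the higher-numbered side in 65. At the other extreme, the 3 members farthest from Her1 all lay near the far end of chromosome 19, where the last Her1 summit was at 43939994. They ran from 48142468 to 48142782 (4.20 Mb away, fold enrichment 7.18), from 48042672 to 48043279 (4.10 Mb, 9.17) and from 48024069 to 48024979 (4.08 Mb, 3.27). Their distances measured 1 stretch without Her1 peaks, and each had a Her7 neighbour within 25 kb.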

How the data were processed

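CUT&Tag peak lists of Her7-YFP and Her1-YFP embryos were used, 1 list per line. FastQC 0.11.9, Bowtie2 2.5.1, SAMtools 1.17, bedtools and MACS2 2.2.7 are named in the submitters' processing notes, with no parameters. The q threshold of 0.01 is given in the names of the deposited peaks. The fold enrichment at each summit, and the −log10 p and −log10 q, are the authors' MACS2 values as deposited, and the deposited score column was not used. The build, the use of a control, pooling and the handling of duplicate reads are not given in the sources used here.

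From these, summit distances, overlaps (1 bp or more) and widths were computed with Python 3.11.15, numpy 2.4.6, pandas 2.3.3, scipy 1.17.1 and matplotlib 3.10.9. Pileup was recovered as the whole number of fragments for which the Poisson tail gives the deposited −log10 p at the deposited fold enrichment, within a relative tolerance of 3e-05. It was found for all 2797 members, and 2775 had exactly 1 solution. For this, 1 was taken to be added to both pileup and background in the fold enrichment. On 1303 simulated peaks, made with the same constant, all pileups were recovered. Sequencing depth is unknown, so intervals (exact Clopper-Pearson, 95%) cover counting error only. The named peaks are the 10 strongest by −log10 q, the strongest of each chromosome, the extremes of width, strength and Her1 distance, and those at the limits of the rule. The members and lists were chosen with earlier results of these data known. Alternatives tried were other spacings, a stricter q, other neighbour rules, a background limit and other measures of strength. Chromosome 4 was also used whole or left out, and rows that share an interval were merged.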

Additional observations from a re-analysis of the deposited data

Results flagged for a closer look

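Peaks that met the same 2 conditions, no Her1 overlap and no Her7 summit within 10 kb, were also present on sequences that the rule left out. There were 487 on alternate contigs, 148 on chromosome 4 from position 27000000 and 104 on unplaced scaffolds. These were 84.4% of 577, 51.9% of 285 and 58.1% of 179 Her7-only peaks there, against 70.3% on the chromosomes used. They drew notice because they are signal outside the sequences described above. Of those on alternate contigs, 270 were the only Her7 peak of their sequence, as were 78 on unplaced scaffolds, so that standing alone there followed from the sequence holding 1 peak. Median fold enrichments were 11.1 on alternate contigs, 8.73 on the left-out part of chromosome 4 and 12.4 on unplaced scaffolds, against 12.9 for the 2797 members.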

How the results depend on the processing

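Over 11 results and 129 alternatives, 104 values stayed within a set tolerance, 23 moved beyond it and 2 changed direction. Merging rows that share an interval left every value as it was. Its values are counted in the 104 but tested nothing. The tolerance was the 95% interval for medians and shares, and 1 SD over chromosomes for the ends. For ratios of medians the limits of the 2 medians' 95% intervals were divided crosswise, which is wider than a 95% interval of the ratio. For the number of members and their density it was a factor of 1.5, a wide one. The 2797 members became 2068 with summits over 50 kb apart and 2058 at a background up to 10 times the floor. The share of members with a Her1 summit within 100 kb, 25.8%, was 23.98% with summits over 20 kb apart, 19.2% over 50 kb, 27.6% when only Her7-only peaks counted as neighbours, 22.1% with no Her1 edge within 10 kb, 23.1% at a −log10 q of at least 5 and 17.5% at a background up to 10 times the floor. The median Her1 distance of 322 kb became 375 kb over 50 kb apart and 351 kb with no Her1 edge within 10 kb. It was 393 kb at the stricter q, 484 kb at low background and 295 kb without centred peaks. The q and background limits were applied to both lists, so Her1 peaks were removed too, which by itself lengthens distances and lowers shares. With all Her1 peaks kept, members at the floor had a median of 398 kb and those up to 10 times it 341 kb. Median fold enrichment, 12.9, was 15.4 at the stricter q, 17.8 at low background and 11.3 without centred peaks. Median −log10 q, 35.8, was 45.3 at the stricter q and 32.0 without centred peaks, and median pileup, 38, was 46 at the stricter q and 26 at low background. The ratio of isolated to clustered Her7-only medians, 1.54 by fold enrichment, was 1.28 by −log10 q, 1.37 without centred peaks and 0.817, the other way, by pileup. The ratio of isolated to Her1-overlapping medians, 0.777, was 0.354 by −log10 q, 0.295 by pileup and 1.23, the other way, with no Her1 edge within 10 kb, where peaks within 10 kb of a Her1 edge joined the overlapping group. The ratio of ends to inner parts, 3.09, was 2.19 at low background, a limit applied there to the members only. The cause of these shifts was not tested. No paired analysis was possible because only 1 list represents a line, which also means that no replicate could be left out. The alternatives on ends and on centred peaks were added after seeing the data. Position relative to genes and sequence at summits were not run.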
